A study of Mus musculus with 4 samples.

Results

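Clade B serpins are the ovalbumin-like branch of the serpin family, and 10 of them were followed through mouse prostate spheres grown with or without DAPT. The 10 genes were Serpinb2, Serpinb5, Serpinb10, Serpinb1a, Serpinb3a, Serpinb6a, Serpinb8, Serpinb9, Serpinb11 and Serpinb12, found on the array by the RefSeq accession that each probe carries. Together they had 15 probes among the 41174 on the array, 1 probe for 5 genes and 2 probes for the other 5. The set was chosen by the difference between DAPT and vehicle in the log2 ratios of these arrays, already known for Serpinb2 and Serpinb10, so the values below describe that difference, and whether a gene passes a threshold on it is no evidence about the set.

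The DAPT group was basal epithelial cells sorted from the prostates of adult FVB mice, cultured as spheres in 5 µM DAPT with the medium renewed every 24 h, and the vehicle group was the same culture with DMSO. DAPT blocks γ-secretase, the protease complex that frees the intracellular part of Notch receptors but also cuts other membrane proteins, so the comparison is one of the inhibitor and not of Notch alone. There were 2 arrays with DAPT and 2 with vehicle, all on 1 slide with 1 scan time. The labels do not say whether the replicates are separate cultures, so a p-value here reflects the scatter among 4 arrays, which may be technical. On every array the sphere RNA was in red and a universal mouse reference RNA in green, and the quantity used is the log2 ratio of red over green. A log2 ratio of 1 is a normalized signal 2-fold that of the reference RNA. An offset of 50 units was added to both channels and makes the ratios of dim spots smaller. For such spots the ratio is not the fold in RNA level. Over the 21472 genes kept, log2 ratios correlated at 0.943 between the DAPT arrays, at 0.921 between the vehicle arrays and at 0.838 to 0.878 between arrays of different groups. Between 63.7% and 69.5% of probe spots per array were well above background in red, by the scanner software's own call. The median red spot read 2.84 and 2.40 times its local background with DAPT, against 1.95 and 1.83 times with vehicle. Spot readings in units of brightness, given below, are not normalized for this difference between the groups.

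A serpin is a protease inhibitor that works once: the protease cuts an exposed loop of the serpin, the serpin snaps shut and the protease stays trapped. Clade B members lack a classical secretion signal and mostly act inside the cell, where they limit damage by leaked proteases. Stratified and glandular epithelia express several of them, and in mouse the genes sit in a cluster on chromosome 1 and another on chromosome 13. Of the 10 genes, 7 lie on chromosome 1 and 3, Serpinb1a, Serpinb6a and Serpinb9, on chromosome 13.

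The sequences before the starts of Serpinb2, Serpinb10, Serpinb5 and Serpinb8 are shown because these chromosome 1 genes had the highest values with DAPT over vehicle among the 10, and Serpinb2, Serpinb10 and Serpinb8 are direct neighbours. Each is the 250 bases upstream of the annotated start in RefSeq (GRCm38.p6), written 5′ to 3′ on the gene's strand. Serpinb2 has 2 annotated starts there, and the sequence belongs to the upstream one. Capitals mark matches, on either strand, to TGANTCA (the letters bound by AP-1), TGGGAA (the core letters bound by RBPJ, the DNA-binding partner of Notch) or TATAAA (the TATA box). TGANTCA reads as the same pattern on both strands.
Serpinb2, chr1:107511173-107511422, plus strand: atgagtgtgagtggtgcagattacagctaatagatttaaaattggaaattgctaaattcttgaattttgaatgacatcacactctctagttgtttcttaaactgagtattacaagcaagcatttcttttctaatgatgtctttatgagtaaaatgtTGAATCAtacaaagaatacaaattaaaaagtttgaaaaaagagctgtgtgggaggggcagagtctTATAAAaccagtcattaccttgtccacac
Serpinb10, chr1:107528753-107529002, plus strand: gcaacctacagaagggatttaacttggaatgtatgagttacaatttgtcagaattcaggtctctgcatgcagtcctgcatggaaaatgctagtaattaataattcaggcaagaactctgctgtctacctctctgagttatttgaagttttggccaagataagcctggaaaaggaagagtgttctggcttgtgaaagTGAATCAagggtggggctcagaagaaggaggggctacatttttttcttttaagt
Serpinb5, chr1:106860925-106861174, plus strand: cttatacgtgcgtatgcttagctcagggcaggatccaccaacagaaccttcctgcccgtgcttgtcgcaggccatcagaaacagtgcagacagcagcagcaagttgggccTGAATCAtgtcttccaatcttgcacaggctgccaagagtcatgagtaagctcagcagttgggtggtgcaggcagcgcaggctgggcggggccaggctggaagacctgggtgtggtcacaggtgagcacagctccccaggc
Serpinb8, chr1:107589756-107590005, plus strand: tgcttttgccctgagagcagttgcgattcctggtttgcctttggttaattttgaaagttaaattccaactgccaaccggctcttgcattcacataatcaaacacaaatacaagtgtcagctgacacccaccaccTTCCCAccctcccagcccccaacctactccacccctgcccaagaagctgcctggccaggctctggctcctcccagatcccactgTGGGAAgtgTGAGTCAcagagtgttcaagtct

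Upstream sequences were found for 9 of the 10 genes. TGANTCA occurred upstream of 6 of the 7 chromosome 1 members, namely Serpinb2, Serpinb5, Serpinb8, Serpinb10, Serpinb11 and Serpinb12, and upstream of neither of the 2 chromosome 13 members with a sequence. Among the other clade B genes it occurred before 1 of 4 on chromosome 1 (Serpinb7) and 0 of 13 on chromosome 13. A gene can have several starts, so shares are counted by sequence. Of the 12 member sequences 7 held TGANTCA, against 6.75% of all 32851 of this length in the table. The overlapping sequences of the Serpinb2 starts are both among the 7 and hold the same site. These shares are for the looser pattern, and none was counted for TGAGTCA. Among the 6 members with TGANTCA only Serpinb8 held the usual AP-1 letters (TGAGTCA), and the others had A or T at N. The match lies 54 to 48 bases before the start in Serpinb10 and 94 to 88 bases before it in Serpinb2, while Serpinb2 also has TATAAA at 29 to 24 bases before the start. TGGGAA was found upstream of Serpinb8 and Serpinb9 only among the 9, in 2 of the 12 sequences, against 21.6% of all upstream sequences. A match is a string of letters and does not show that a factor binds there.

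Serpinb2, which encodes plasminogen activator inhibitor 2, the clade B inhibitor of urokinase, stood furthest apart between the groups. Its probe A_51_P101146 had log2 ratios of 3.62 and 4.59 with DAPT, against 2.13 and 0.53 with vehicle. The probe A_52_P639522, which also reports Serpinb2, gave 4.04 and 3.82 with DAPT, against 1.72 and 1.18 with vehicle. On both probes the DAPT arrays lay above the vehicle arrays, and the vehicle 2 array was the lowest. The difference of DAPT minus vehicle in log2 ratio was 2.77 ± 0.42 (SE) on the first probe and 2.48 ± 0.23 (SE) on the second.

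The Serpinb2 spots show how little signal lay behind the vehicle values. With DAPT the red spot of A_51_P101146 read 588 and 731 units of brightness over local backgrounds of 60 and 63, against 187 and 84.5 units with vehicle over backgrounds of 61 and 59. On vehicle 2 this red spot was not well above background, whereas that of A_52_P639522 was so on all 4 arrays. The green reference spots of both Serpinb2 probes were not well above background on any array, at 58 to 125.5 units with DAPT and 55 to 71 units with vehicle. The reference RNA thus gave only a bound for this gene, and its log2 ratio to the reference is not a measured level. On A_51_P101146 the green channel differed by -0.42 (DAPT minus vehicle), which adds to the 2.77, as the ratio is red over green. In the red channel alone, scaled by loess and then Aquantile, A_51_P101146 had a mean log2 signal of 9.89 with DAPT and 7.54 with vehicle, a difference of 2.35. The offset of 50 units added to every spot before the logarithm makes changes of dim spots smaller.

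Serpinb10, known in human as bomapin and found there in the nuclei of blood cells, is the direct neighbour of Serpinb2. Its log2 ratios were 1.97 and 2.04 with DAPT, against 0.11 and -0.64 with vehicle. The DAPT arrays lay close together and well above both vehicle arrays, and vehicle 2 was again the lowest. The red spots read 258.5 and 310 units with DAPT, against 109.5 and 69 units with vehicle, where the spot of vehicle 2 was not well above background. The difference was 2.27 ± 0.24 (SE), 4.82-fold. The mean log2 red signal was 8.67 with DAPT and 7.08 with vehicle, and the mean log2 green signal of the reference RNA was 6.67 on the DAPT arrays and 7.34 on the vehicle arrays. The sphere RNA channel differed by 1.59 and the reference channel by -0.68 (DAPT minus vehicle). As the ratio is red over green, both add to the difference of 2.27.

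Serpinb8, whose human protein inhibits the proprotein convertase furin, is next in line on the chromosome. Its probe A_52_P521054 had log2 ratios of 1.24 and 0.63 with DAPT, against 0.49 and -0.45 with vehicle. The groups did not overlap, but the gap between DAPT 2 and vehicle 1 was small beside the spread within each group. The difference was 0.91 ± 0.30 (SE), 1.88-fold, and it was carried by the red channel, at 9.07 with DAPT and 8.03 with vehicle (mean log2 signal). The other Serpinb8 probe, A_52_P544885, was not well above background in red on any array. It read -0.25 and -0.05 with DAPT, against -0.09 and -0.44 with vehicle, with overlapping groups.

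Serpinb5 encodes maspin, a serpin of basal and myoepithelial cells that has lost protease inhibition and is known as a tumour suppressor in breast and prostate. It was rich in spheres of both groups, with log2 ratios of 5.37 and 5.17 with DAPT, against 4.72 and 4.04 with vehicle. Both DAPT arrays lay above both vehicle arrays. The means were 5.27 ± 0.15 with DAPT and 4.38 ± 0.48 with vehicle (SD, n = 2 each), a difference of 0.90 ± 0.24 (SE), 1.86-fold. In the red channel the mean log2 signal was 12.29 with DAPT and 11.70 with vehicle, and in the reference channel it was 7.02 on the DAPT arrays and 7.32 on the vehicle arrays. The red signal of vehicle 1 alone, 12.03, was close to that of DAPT 1, 12.06. The scanner software marked the Serpinb5 spot as non-uniform or as an outlier on all 4 arrays. Over all probe spots it marked 49.6% and 50.9% on the DAPT arrays, against 11.5% and 29.2% on the vehicle arrays. The part of these marks in the differences was tested only by leaving marked spots out. That left no spot for Serpinb5, so the part of the marks in its difference was not tested. Serpinb6a, marked on both DAPT arrays, dropped out as well.

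**Figure D1:**
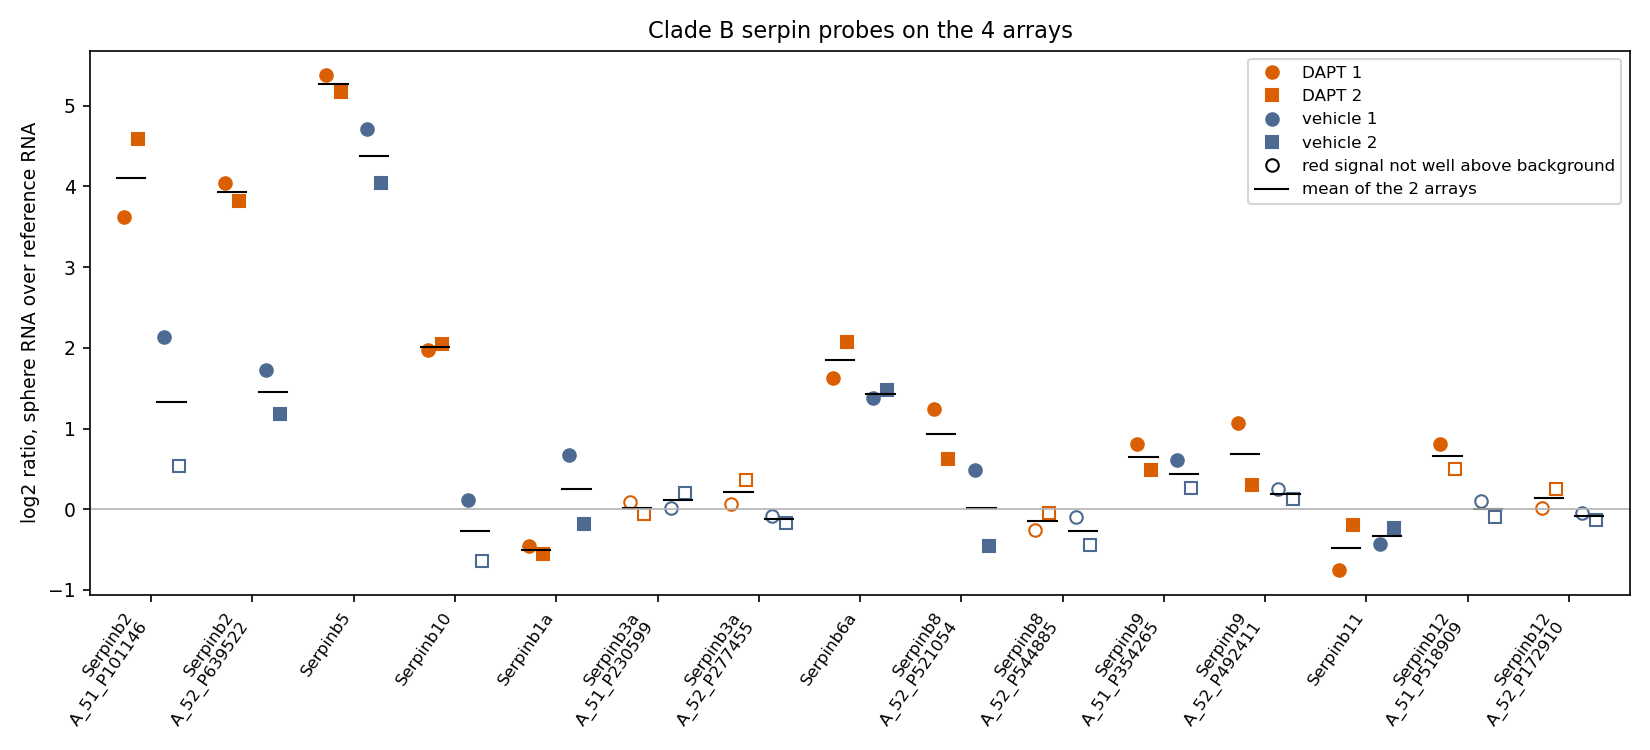
Log2 ratio of sphere RNA over reference RNA (vertical axis) for the 15 probes of the 10 clade B serpins, with DAPT arrays in orange left of vehicle arrays in blue, circles for array 1 and squares for array 2 of a group, bars for the mean of 2 arrays, and open symbols where red was not well above background. The DAPT arrays lie above the vehicle arrays for both Serpinb2 probes and for Serpinb5 and Serpinb10, and below them for Serpinb1a.

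Serpinb1a is the mouse counterpart of the human leukocyte elastase inhibitor, which blocks the neutrophil proteases elastase, cathepsin G and proteinase 3. Its log2 ratios were -0.45 and -0.56 with DAPT, against 0.68 and -0.18 with vehicle. It was the only one of the 8 genes tested whose DAPT arrays lay below both vehicle arrays. The difference was -0.75 ± 0.26 (SE), 1.69-fold lower with DAPT. The DAPT arrays agreed within 0.08 (SD) while the vehicle arrays differed by much more, with an SD of 0.60. The red spot read 240 and 260 raw units with DAPT, against 469.5 and 141 raw units with vehicle. In these units vehicle 1 alone was brighter than the DAPT arrays. After loess and Aquantile the log2 red signal was 8.28 and 8.65 with DAPT, against 9.94 and 8.34 with vehicle. Vehicle 2 then lay between the DAPT arrays.

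Serpinb6a, an inhibitor of cathepsin G and other serine proteases in the cytoplasm, was among the brighter of the 10. Its log2 ratios were 1.63 and 2.07 with DAPT, against 1.38 and 1.48 with vehicle. The groups did not overlap, and the difference of 0.42 ± 0.21 (SE), 1.34-fold, was close to the spread of the DAPT arrays (SD 0.31).

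Serpinb9, the inhibitor of granzyme B that protects cells from cytotoxic lymphocytes, was dim. Probe A_51_P354265 had log2 ratios of 0.81 and 0.48 with DAPT, against 0.61 and 0.26 with vehicle, with overlapping groups and a difference of 0.21 ± 0.21 (SE). Probe A_52_P492411 gave 1.06 and 0.30 with DAPT, against 0.25 and 0.13 with vehicle. Its red spot was well above background on both DAPT arrays and on neither vehicle array, so the vehicle level was not measured. The mean log2 red signal was 7.16 with DAPT and 6.79 with vehicle, a 1.29-fold difference. The groups overlapped in red, with DAPT 2 at 6.87 and vehicle 1 at 6.89, so no lower bound on the fold is given. The red channel alone is also open to dye bias.

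Serpinb11, an epithelial serpin of unsettled target, had log2 ratios of -0.75 and -0.20 with DAPT, against -0.43 and -0.24 with vehicle. The vehicle arrays lay between the DAPT arrays, and the difference was -0.14 ± 0.22 (SE).

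Serpinb3a and Serpinb12 had no probe that was well above background on each array of a group, and were not tested. Serpinb3a, a mouse relative of the human squamous cell carcinoma antigens, was not well above background on any array with either probe. Its red spots read 66 to 81 units with DAPT and 68.5 to 72 units with vehicle. Serpinb12, an inhibitor of trypsin-like proteases in epithelia, was measured on DAPT 1 alone, with probe A_51_P518909. That red spot read 127 units on DAPT 1 and 95 units on DAPT 2, against 81 units on vehicle 1 and 75.5 units on vehicle 2. With 1 spot of 4 above background, no fold is given. The other Serpinb12 probe was not well above background on any array.

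**Figure D2:**
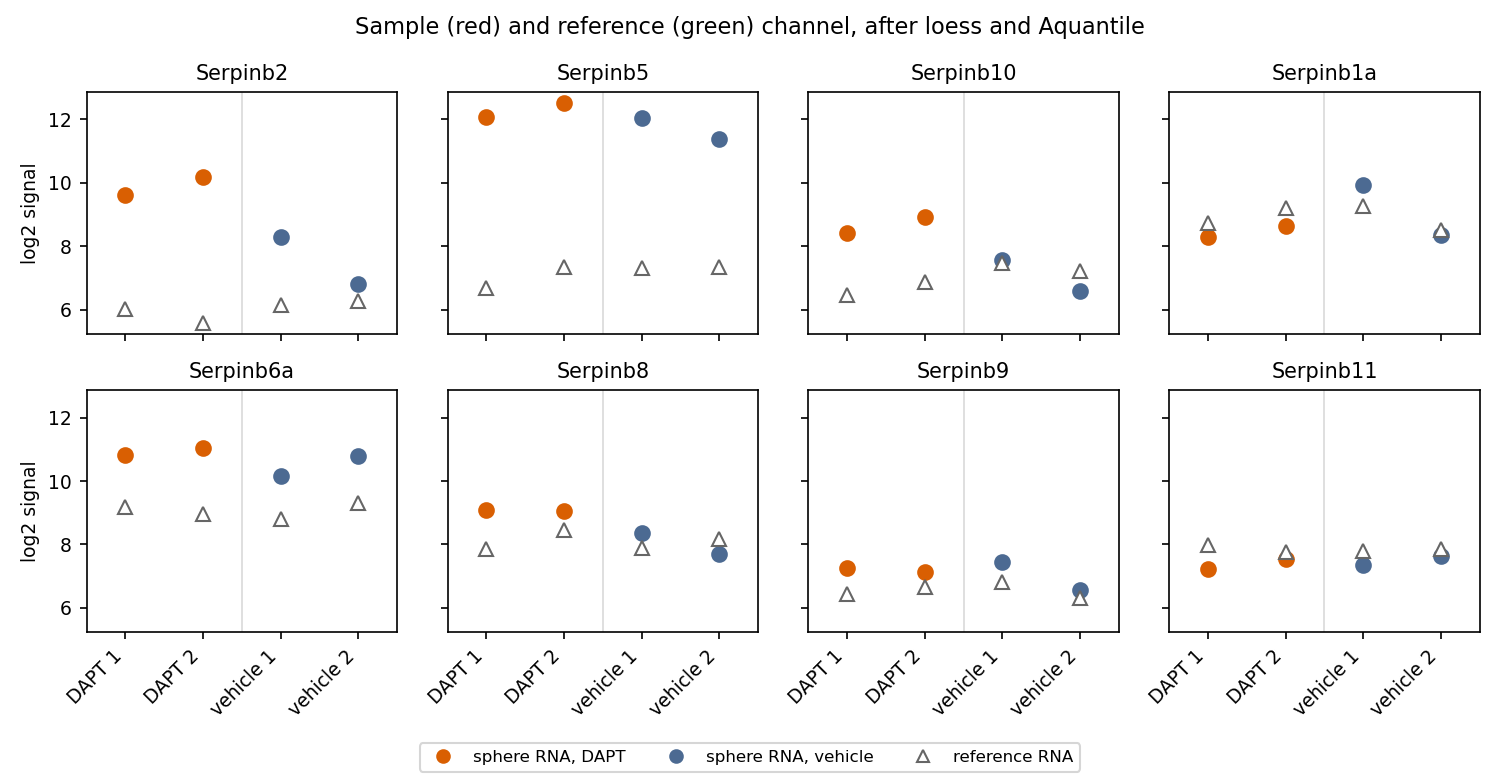
Log2 signal (vertical axis) of sphere RNA (filled circles, orange with DAPT and blue with vehicle) and of the reference RNA (open triangles) on each array, for the probe that stands for each of the 8 genes tested, after loess and Aquantile normalization. Serpinb2 sphere signals lie at 9.62 and 10.17 with DAPT and at 8.28 and 6.80 with vehicle, while its reference signal stays between 5.58 and 6.27.

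Of the 8 genes bright enough to enter limma's fit across all genes, Serpinb2, Serpinb10 and Serpinb5 were called higher with DAPT at an adjusted p of 0.05, where 2.82% of all genes were. None was called lower, where 4% of all genes were. The DAPT arrays lay above the vehicle arrays for 5 of the 8, against 21.8% of all genes, and below them for 1, against 31.9%. The members were picked with this contrast in view, and Serpinb10, Serpinb9 and the A_51_P101146 probe of Serpinb2 entered the fit only through the DAPT arrays, so nothing is read from these counts. With processed signals only Serpinb10 kept its call, since Serpinb2 (2.73) and Serpinb5 (1.24) lost theirs, and with scale normalization Serpinb5 lost it too. None of the 8 was called in the red channel alone (3 had an unadjusted p under 0.05 in limma), nor when 13 spots with very high local background on DAPT 2 were kept in the background correction (1 had an unadjusted p under 0.05).

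The size of each difference varied with the array left out. For Serpinb2 it was 1.97 without vehicle 2 and 3.57 without vehicle 1, and for Serpinb10 it was 1.89 and 2.65 in the same order. Serpinb5 stood at 0.56 without vehicle 2 and at 0.79 without DAPT 1. Serpinb8 stood at 0.44 without vehicle 2 and at 1.39 without vehicle 1. Serpinb1a stood at -0.33 without vehicle 1 and at -1.18 without vehicle 2. With scale normalization between arrays Serpinb5 changed sign, to -0.13, and with the scanner software's processed signals Serpinb9 stood at -0.46.

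**Figure D3:**
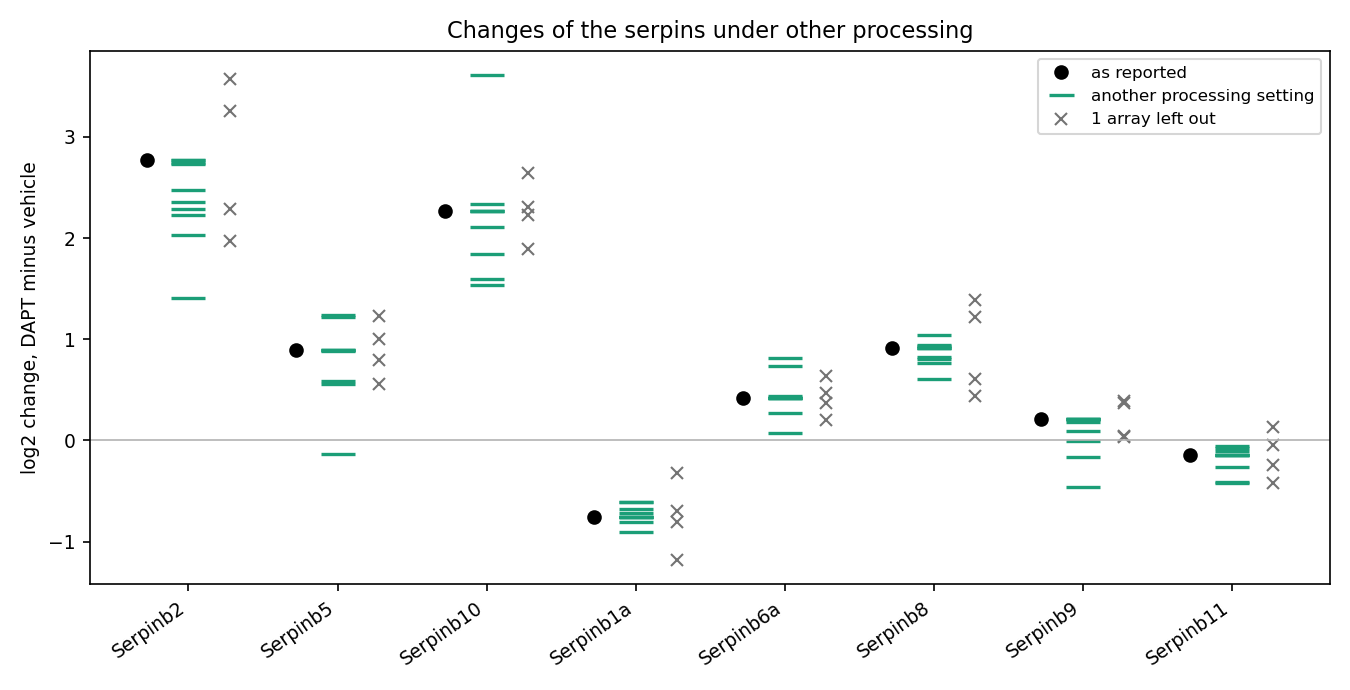
Log2 difference of DAPT minus vehicle (vertical axis) for the 8 genes tested, as reported (black), under other processing settings (green bars) and with 1 array left out (grey crosses). Serpinb2 ranges from 1.40 to 3.57 and Serpinb10 from 1.54 to 3.61, always above 0, while Serpinb5, Serpinb9 and Serpinb11 cross 0 in at least 1 setting.

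The remaining clade B genes, a list of 18, had 14 genes on the array, of which 8 were bright enough to test. None of the 8 passed in limma in either direction (1 was higher and 1 lower at an unadjusted p under 0.05), where 6.81% of all genes passed. Their median difference was -0.30, against -0.06 over all genes, with 7 below 0 and 1 above. Serpinb1c, a close relative of Serpinb1a, had the lowest value at -0.66 ± 0.25 (SE, adjusted p = 0.131), and it passed without DAPT 2 (-1.05, adjusted p = 0.0119, against 0.135 to 0.642 with any other array left out). Serpinb6b stood at -0.40 ± 0.20, Serpinb9e at -0.39 ± 0.20 and Serpinb1b at -0.33 ± 0.23 (SE). Serpinb9d stood at -0.27, Serpinb9g at -0.08 and Serpinb9c at -0.02, and Serpinb6d had the one value above 0, 0.47 ± 0.20 (SE). Within the Serpinb1, Serpinb6 and Serpinb9 groups the genes are near relatives, and their probes may not tell them apart.

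Along chromosome 1 the largest differences stood at one end of the cluster, where Serpinb2, Serpinb10 and Serpinb8 follow each other at 2.77, 2.27 and 0.91. Serpinb5 at 0.90 sits at the opposite end. Between them Serpinb11 stood at -0.14, and the other genes there, among them Serpinb7 and Serpinb13, were too dim to test. The flanking genes were added after values had been seen. Vps4b, next to Serpinb5, stood at 0.01 ± 0.23, and Cdh19, the nearest testable gene beyond Serpinb8, at -0.02 ± 0.22 (SE). On chromosome 13 the 3 members stood at -0.75, 0.21 and 0.42.

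**Figure D4:**
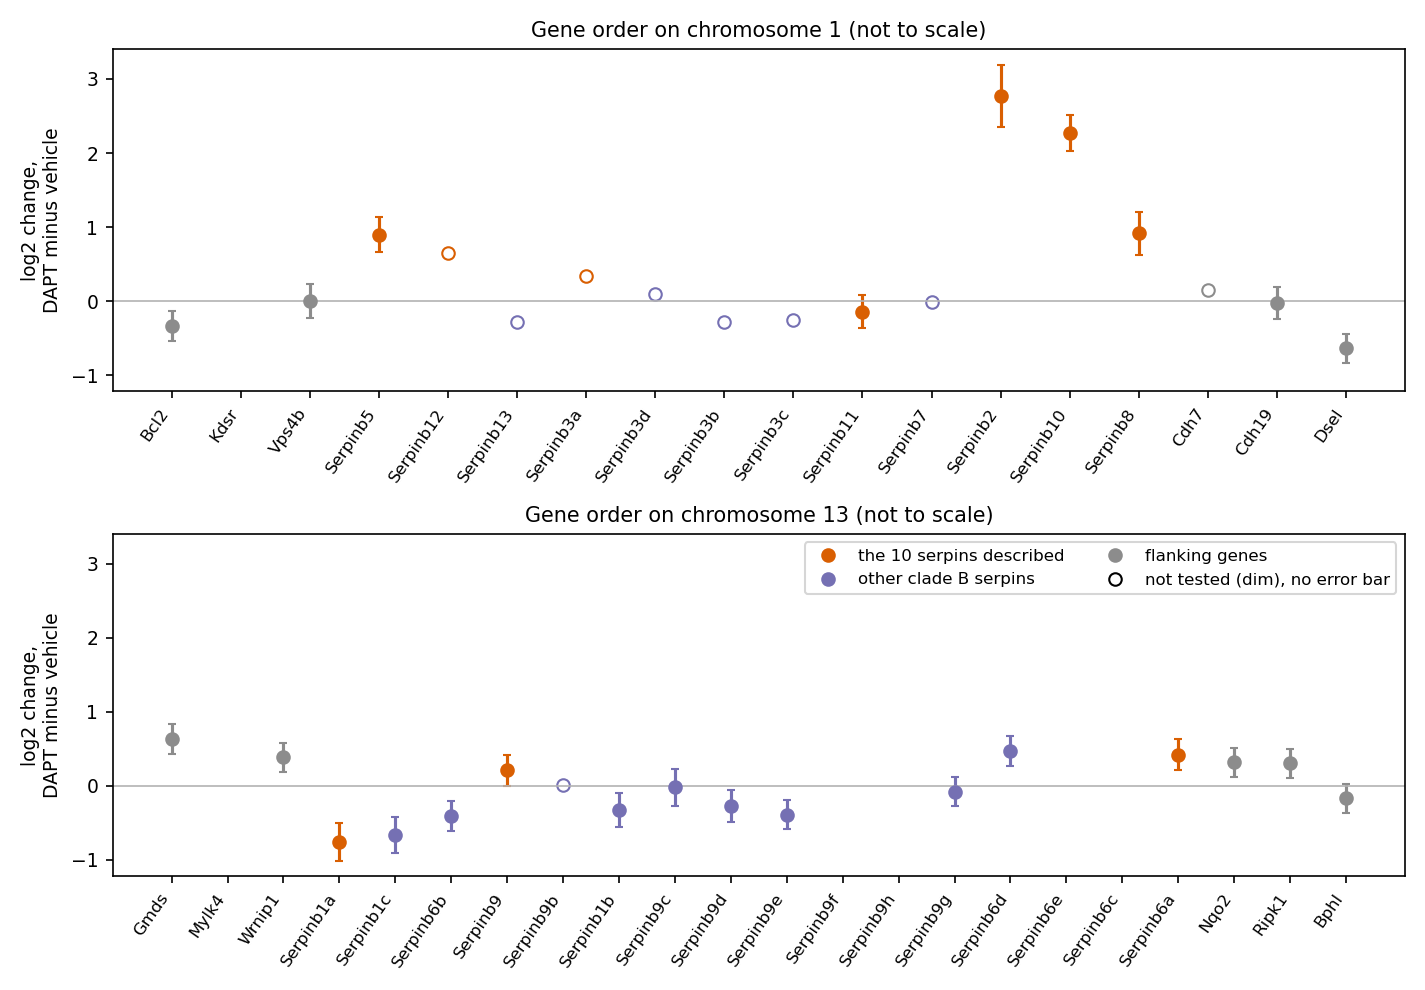
Log2 difference of DAPT minus vehicle (vertical axis) of clade B genes and 3 flanking protein-coding genes on each side, in the order of the RefSeq table (horizontal axis, not to scale). Filled points with SE bars are tested genes, open points are genes too dim to test, and empty places had no named probe; Serpinb2 and Serpinb10 stand side by side at 2.77 and 2.27.

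The genes whose profile over the 4 arrays was nearest to that of Serpinb2, by Euclidean distance of log2 ratios less the gene's mean among 13993 named genes, were Slc25a48 (0.51), Bst1 (0.91), Afap1l1 (0.92), Serpinb10 (1.00) and Lmo1 (1.22). For Serpinb10 they included Afap1l1 (0.16), Bst1 (0.28), Prmt3 (0.52) and Pth2r (0.53). With 4 arrays such a likeness says little more than that these genes differ by a like amount between the groups, with vehicle 2 the lowest array.

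Among 30 tested proteases, protease receptors and related enzymes that clade B serpins are known to meet, or that work in the same epithelial cascades, none rose in limma (2 were higher at an unadjusted p under 0.05) and 4 fell, 13.3% against 4% of all genes. Their median difference was -0.23. The urokinase gene Plau, whose product Serpinb2 inhibits, had mean log2 ratios of 1.15 with DAPT and 0.33 with vehicle, a difference of 0.82 ± 0.24 (SE) that did not pass (adjusted p = 0.0579). It passed without DAPT 1 (0.97, adjusted p = 0.0207) and without vehicle 1 (1.12, adjusted p = 0.00644), but not without DAPT 2 (adjusted p = 0.191) or vehicle 2 (adjusted p = 0.262). The urokinase receptor gene Plaur at -0.23 ± 0.21 (SE) and the tissue plasminogen activator gene Plat at -0.16 ± 0.23 (SE) did not pass, and both turned sign with median centring, Plaur to 0.23 and Plat to 0.31. Plaur also stood at 0.03 with processed signals and at 0.02 in the red channel alone. Furin, the target of human SERPINB8, fell by 0.85 (SE 0.19, adjusted p = 0.0201) and did not pass without DAPT 2 (adjusted p = 0.0649, against 0.0305 to 0.0374 with any other array left out). The cysteine protease gene Ctsk (cathepsin K) fell by 1.45 (SE 0.22, adjusted p = 0.00201), Ctsb (cathepsin B) fell by 1.09 (SE 0.20, adjusted p = 0.00683) and the serine protease gene Prss22 fell by 1.12 (SE 0.19, adjusted p = 0.00529). Cathepsin K is also made by fibroblasts. When marked spots were left out, another probe stood for Ctsb, and its value was higher with DAPT than with vehicle. These 4 falls depended on the scaling: none of the 4 passed with processed signals, in the red channel alone or with the high-background spots kept. With median centring Ctsk passed (-1.14) and Furin (-0.40, adjusted p = 0.225), Ctsb (-0.62, adjusted p = 0.0709) and Prss22 (-0.63, adjusted p = 0.0768) did not.

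Of 16 tested serpins of other clades, which are mostly secreted, 5 fell in limma, 31.25% against 4% of all genes. None rose (1 was higher at an unadjusted p under 0.05), where 2.82% of all genes did. Their median difference was -0.39. Serpinc1, which encodes antithrombin, fell by 2.24 (SE 0.24, adjusted p = 0.000242). Serpinf1, the gene of pigment epithelium-derived factor, fell by 2.23 (SE 0.22). The complement inhibitor gene Serping1 fell by 1.44 (SE 0.25, adjusted p = 0.00521), and Serpine2 fell by 1.15 (SE 0.22, adjusted p = 0.00828). None of the 5 passed in the red channel alone (5 of the 16 had an unadjusted p under 0.05), where Serpine2 stood at -0.52. With the high-background spots kept Serpinc1 passed and Serpinf1, Serping1 and Serpine2 did not.

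Markers of other cell types were read on the same arrays. All 8 basal markers, among them Krt5, Krt14 and Trp63, were well above background on all 4 arrays, and the prostate luminal gene Pbsn was so on none. Of the 8 basal markers 1 fell and none rose in limma (2 were higher at an unadjusted p under 0.05), and of 6 luminal markers tested 1 fell and none rose (0 were higher at an unadjusted p under 0.05). Over all genes 4% fell and 2.82% rose in limma, the shares to set beside the counts of every marker list here. For leukocytes, where Serpinb1a, Serpinb9 and human SERPINB10 are known to be expressed, 16 of 17 markers with a probe were well above background on at least 1 array and Cpa3 on none. None of 16 tested leukocyte markers passed in limma (1 was higher and 4 lower at an unadjusted p under 0.05), and their summed red signal was 9084 and 10167 units with DAPT, against 8778 and 10183 units with vehicle. Without Cd3e, the brightest of them, the sum was 4865 and 5470 units with DAPT, against 5076 and 5606 units with vehicle. Such sums weigh probes by their brightness. All sums of red signal here were taken after loess and Aquantile, with the offset of 50 included. Their units are not those of the raw spot readings. The pan-leukocyte gene Ptprc stood at 0.04 ± 0.25 (SE). Of 10 fibroblast markers 8 fell and none rose in limma (0 were higher at an unadjusted p under 0.05), and their summed red signal was 11988 and 12715 units with DAPT, against 52880 and 40142 units with vehicle. Mgp carried much of that sum, and without it the sum was 8308 and 9605 units with DAPT, against 19952 and 24867 units with vehicle. Fibroblast markers thus moved with the falls of Ctsk, Serpine2, Serping1 and Serpinf1, and their part in these falls was not tested. In bulk RNA, fewer cells of a type and less RNA per cell cannot be told apart.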

How the data were processed

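Sphere RNA was hybridised to 4 arrays in 2 colours, 2 with DAPT and 2 with vehicle, from 2.5 µg of total RNA per the labels. Per the file headers, each scanner file came from Agilent Feature Extraction 10.7.3.1 and holds spot and local background intensity as median pixel brightness, not normalized, and processed intensity that the software had background-subtracted and dye-normalized. The deposited log10 ratio in these files served to settle the direction of a further table. This table, made by the authors, holds log2 values with column medians of -0.015, -0.011, 0.00072 and -0.011; they correlated at 0.869 to 0.902 with the scanner ratios and at 0.9995 to 0.9998 with the ratios computed here, so the direction is sample over reference. Its normalization is not stated in the labels or headers.

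Spots with a local background over 5 times the array median (13, all on DAPT 2) were left out. Background was corrected with limma 3.58.1 in R 4.3.3 (normexp, offset 50), and loess was fitted within each array. Probes entered the test when each array of 1 group or the other had a red spot well above background, and a gene with several such probes was represented by the brightest. Probes were named through the RefSeq accessions of GRCm38.p6. Groups were compared with lmFit and eBayes (two-sided, Benjamini-Hochberg over 21472 genes, threshold 0.05). Only this comparison was tried on simulated log2 ratios, and the steps before it were not tested that way. The number of arrays limits the precision. All 10 serpins, 8 further clade B genes, Plau, Plat, Plaur and Furin are named whatever their values, as are the 5 genes nearest in profile to Serpinb2 and to Serpinb10, and from the other lists at most 4 of the largest changes that passed. Markers, Serpine2 and flanking genes named beyond this rule were chosen after their values were seen. A few genes that the rule names are not reported here. The serpins and gene lists were chosen with earlier results of these data known.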

Additional observations from a re-analysis of the deposited data

How the results depend on the processing

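Counts of genes passing are given by setting. Over all genes 1463 passed, 41.4% of them higher with DAPT. With processed signals 705 did, in the red channel alone 1 (2616 at an unadjusted p under 0.05), without marked spots 646 (62.2% higher, of 8470 genes tested, with 49.6% and 50.9% of spots marked on the DAPT arrays, against 11.5% and 29.2% on the vehicle arrays) and with the 13 high-background spots kept 87 (4.6% higher). Median centring gave 69.8% higher and scale normalization 27.5%, and median centring moved the median of all genes from -0.06 to 0.11. Leaving out an array gave 1110 to 1823. Of the 10 serpins 3 passed as reported, 1 with processed signals, 0 in the red channel alone, 0 with the high-background spots kept and 5 with the replicate block, and 2 to 4 with an array left out. Other clade B genes passing numbered 0 to 1 with an array left out. Serpins of other clades numbered 5 as reported, 0 in the red channel (5 at an unadjusted p under 0.05), 1 without marked spots and 2 with the high-background spots, and 5 to 6 with an array left out. Proteases numbered 4 as reported, 1 with processed signals, 2 with median centring, 7 with scale normalization, 0 in the red channel (6 at an unadjusted p under 0.05), 2 without marked spots, 0 with the high-background spots (6 at an unadjusted p under 0.05), 7 with the replicate block and 4 to 7 with an array left out. Serpinb5 stood at -0.13 with scale normalization, and Ctsb at 0.31 without marked spots, where another probe stood for it; the cause of the first was not tested. A lone array of a group was assumed to vary like the other group. Arrays share only a number in the labels: deviations of same-numbered arrays correlated at 0.086, and with the block 2055 genes passed. The dim spots of Serpinb2, Serpinb9, Serpinb10 and Serpinb12 limit what can be measured, and 2 arrays a group limit the rest.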

Other observations

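Serpinb9c, a mouse relative of the granzyme B inhibitor Serpinb9, had by far the brightest spot of the clade B probes read here. Its red spot read 15390 and 14440.5 units with DAPT, against 5751.5 and 6987.5 units with vehicle, and its green reference spot read 11150 and 12435.5 units on the DAPT arrays, against 7631 and 6686.5 units on the vehicle arrays. Both channels were brighter on the DAPT arrays, and the difference in log2 ratio was -0.02 ± 0.25 (SE). Brightness depends on the probe as well as on the RNA, so this sets no order of levels among the genes.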
